A study of Mus musculus with 6 samples.

Results

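Desmosomes are the spot-like junctions that join keratinocytes to each other and tie their keratin filaments into a continuous network. Their adhesive cores are cadherins of the desmoglein (Dsg) and desmocollin (Dsc) families. Inside the cell the armadillo proteins plakophilin (Pkp) and plakoglobin (Jup) bind the cadherin tails, and desmoplakin (Dsp) links this plaque to keratin. In epidermis Dsg1 and Dsc1 are known for the upper, differentiating layers and Dsg3 and Dsc3 for the lower ones, while Dsg2 and Dsc2 are widespread in epithelia.

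Desmosomal genes were followed in mouse dorsal skin wounds of full thickness, taken 8 days after injury and read as total RNA on Illumina bead arrays. The genes are Dsg1a, Dsg1b, Dsg1c, Dsg2, Dsg3, Dsc1, Dsc2, Dsc3, Dsp and Pkp1, chosen by symbol: every probe that the platform annotation gives to 1 of these 10 genes was taken. That gave 18 of the 45281 probes and 9 of the 10 genes, with no probe carrying the symbol Dsp in the annotation used. All 6 samples had a C57/BL6 background and floxed β-Catenin (Ctnnb1), so the controls carried floxed alleles too. In the adenovirus experiment, mice with β-Catenin flox/flox (exon 3) received Adenovirus-GFP (GFP control, 1 array) or Adenovirus-CRE (stabilised, 1 array), both at 2 months of age. Loss of exon 3 leaves a β-Catenin protein that escapes degradation. In the tamoxifen experiment, mice with β-Catenin flox/flox (exons 2-6) were all given tamoxifen, either with Cre-Esr1 (knockdown, 2 arrays) or without it (tamoxifen control, 2 arrays). Replicate 1 of both tamoxifen groups was taken at 5 months of age and replicate 2 at 2 months. The labels name no promoter for Cre-Esr1 and do not say whether animals were pooled.

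The arrays had 15217 to 16656 probes with a detection p under 0.01, called detected here, and precision is limited by how few arrays there are. All values are the authors' deposited log2 signals, which have equal quantiles on every array, so a difference of 1 is 2-fold. Ctnnb1, the targeted gene, has 4 probes that were detected on all arrays. The brightest read 11.93 and 11.86 on knockdown replicates 1 and 2 against 12.04 and 11.48 on the controls, and 11.40 on the stabilised against 11.49 on the GFP control array. Of the others, 2 differed by 0.14 and 0.20 between knockdown and control, and 1 read 6.68 and 6.75 in knockdown against 7.002 and 7.03 in control wounds, without overlap. Whether the probes lie in the floxed exons is not given, so they are no check of the labelled genotype. Keratinocyte markers were present: all 7 basal keratinocyte markers and all 4 wound-edge keratins of the lists used here were measured, and Krt14, the main basal keratin, read 15.85 to 16.02.

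Of the 9 genes with a probe, 5 were detected on all 6 arrays on their brightest probe: Dsg1b, Dsg2, Dsc1, Dsc3 and Pkp1. Dsg1a was detected on the GFP control array and on tamoxifen control replicate 2, and Dsg1c on the GFP control array, each on 1 probe. The single probes of Dsg3 and Dsc2 were detected on no array, reading 4.50 to 4.74 and 4.49 to 4.71. Both genes are thus not well above background on these probes, which says nothing of other parts of their transcripts or of their protein. In all, 11 of the 18 probes were detected on at least 1 array. Dsg1a, Dsg1b and Dsg1c are near-identical copies, so their probes may read each other and their separate values are uncertain. In the RefSeq gene table of assembly GRCm38.p6, all 8 desmoglein and desmocollin genes lie side by side on chromosome 18 in the order Dsc3, Dsc2, Dsc1, Dsg1c, Dsg1a, Dsg1b, Dsg3 and Dsg2, with Dsg4 between Dsg1b and Dsg3. Pkp1 lies on chromosome 1 and Dsp on chromosome 13.

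**Figure D1:**
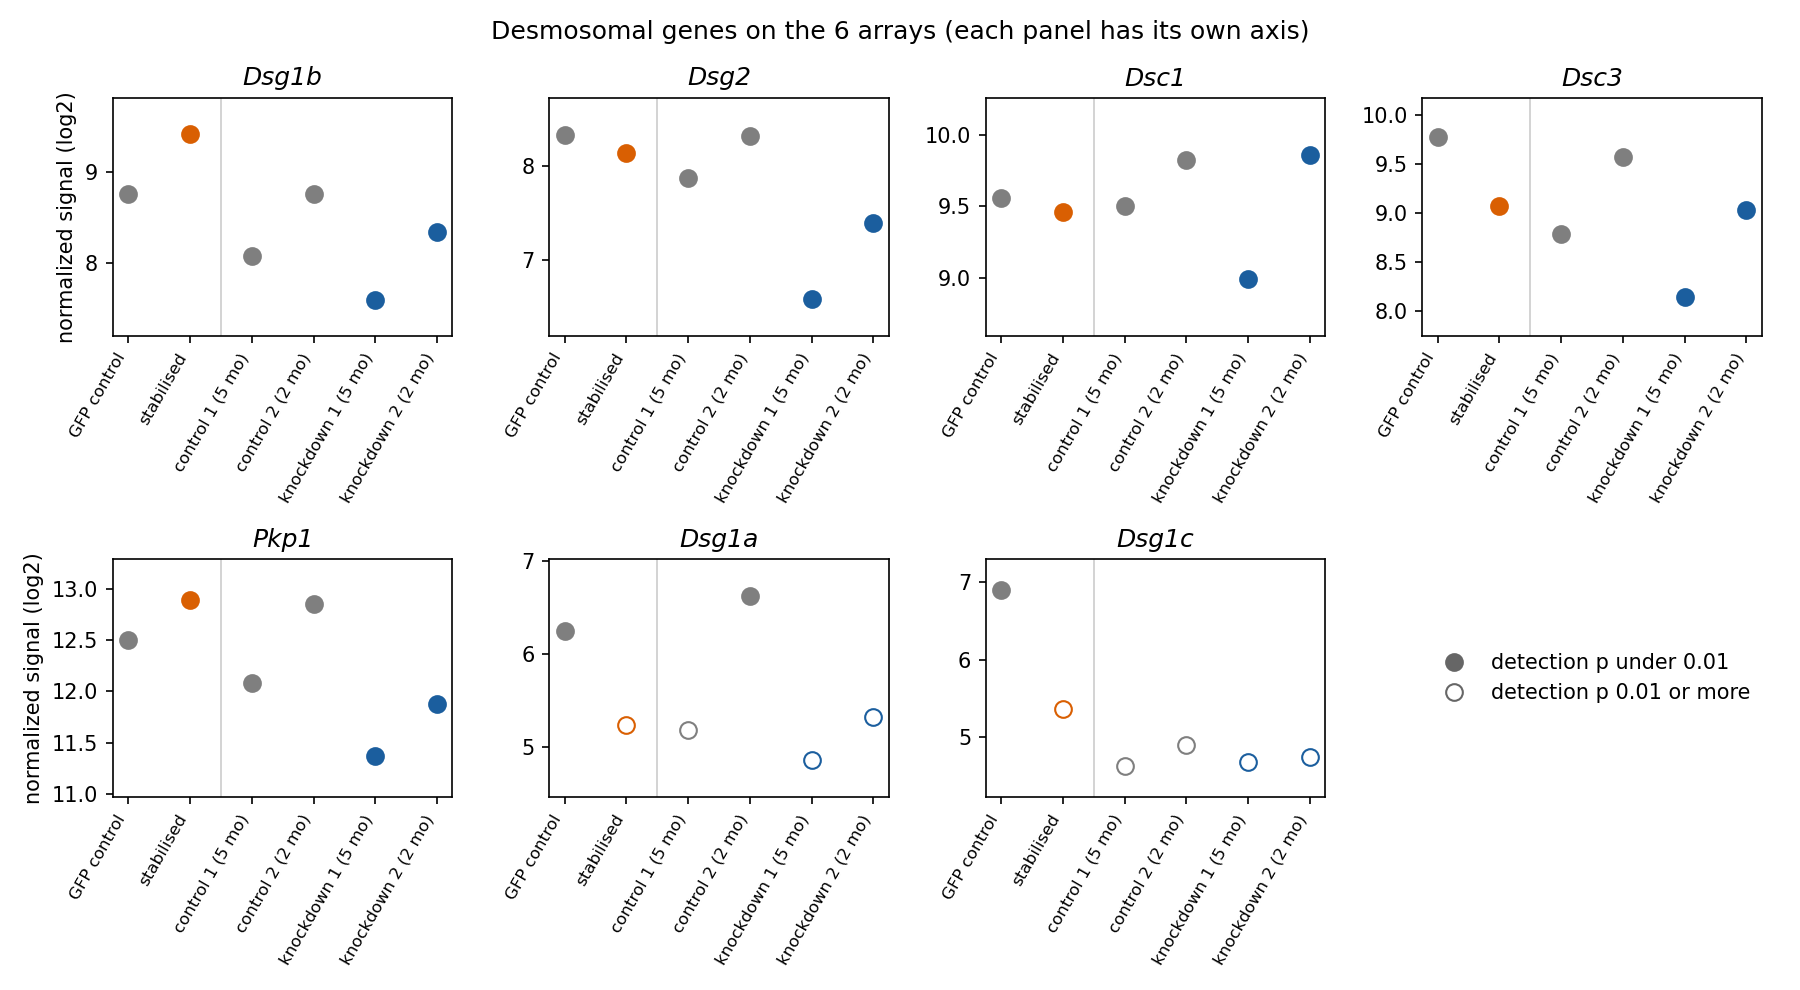
Normalized signal (log2, y axis) of 7 desmosomal genes on each of the 6 arrays (x axis), 1 panel per gene on the probe that stood for it; filled points were detected and open points were not. Knockdown replicate 1 is the lowest array in the panels of Dsg1b, Dsg2, Dsc1, Dsc3 and Pkp1, while Dsg1a and Dsg1c were detected on 2 arrays and 1 array.

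The first comparison asked what loss of β-Catenin does to wound tissue, here to the desmosomal genes. All 5 measured genes had a lower mean in knockdown than in tamoxifen control wounds, as did 48.1% of the 9855 genes tested. Their median log2 difference was -0.59, against 0.01 over all genes tested. The widest differences were those of Dsg2 and Pkp1, whose groups did not overlap. No member passed the test, however: in limma 0 of the 5 had an adjusted p under 0.05, as did 0 of the 9855 genes (0%). At an unadjusted p under 0.05 limma gave 1 of the 5 members, Dsg2, and 434 of all genes (4.4%). In bulk tissue, fewer keratinocytes and less RNA per keratinocyte cannot be told apart.

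Among the cadherins, Dsg2 read 6.58 and 7.39 on knockdown replicates 1 and 2, and 7.87 and 8.33 on the controls. Both knockdown arrays were thus below both control arrays. The means were 6.98 ± 0.57 and 8.10 ± 0.32 (SD, n = 2 each), which is 2.17-fold lower in knockdown. The log2 difference was -1.12 with an SE of 0.34 and a 95% interval of -2.00 to -0.23 before adjustment (limma adjusted p = 0.976). A second Dsg2 probe, detected on 5 arrays, gave -0.51, with knockdown replicate 1 below detection. Another was detected on control replicate 1 alone and gets no difference, and the remaining Dsg2 probe was not detected on any array.

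Dsc3, a desmocollin of the lower epidermal layers, read 8.14 and 9.03 in knockdown against 8.79 and 9.57 in control wounds. The groups overlapped, since knockdown replicate 2 lay above control replicate 1. The log2 difference was -0.59 with a 95% interval of -1.68 to 0.50 (limma adjusted p = 0.976). Dsg1b read 7.59 and 8.34 against 8.08 and 8.76, with a log2 difference of -0.45 and the same overlap of the middle arrays. Its 2 dimmer probes, each detected on 4 arrays, gave -0.31 and -0.57, both with knockdown replicate 1 below detection. On the first, knockdown replicate 2 read 6.64, above both controls at 6.05 and 6.53. On the second, control replicate 1 was below detection too. Dsc1, the desmocollin of the upper layers, read 8.99 and 9.85 against 9.50 and 9.82, so that the highest and the lowest array were both knockdown wounds. Its log2 difference of -0.24 had a 95% interval of -1.12 to 0.64 (limma adjusted p = 0.983). Dsg1a, detected on control replicate 2 alone among the tamoxifen arrays, read 4.86 and 5.33 in knockdown against 5.18 and 6.62 in control wounds and was not tested. No fold is given for it. The Dsg1c probes were detected on none of these 4 arrays.

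In the plaque, Pkp1, which gathers desmosomal cadherins and desmoplakin at the junction, read 11.37 and 11.87 on the knockdown arrays. The control arrays read 12.08 and 12.85, both above both knockdown arrays. The means were 11.62 ± 0.36 and 12.47 ± 0.55 (SD, n = 2 each), 1.80-fold lower in knockdown. The log2 difference of -0.85 had an SE of 0.34 and a 95% interval of -1.73 to 0.04 (limma adjusted p = 0.976). Groups that do not overlap and are lower in knockdown were thus seen in 2 of the 5 measured genes, where 16% of all genes tested showed the same.

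In both tamoxifen groups the replicates differ in age, and the desmosomal genes differed between the ages. Within knockdown and within control wounds alike, all 5 measured genes read lower at 5 months than at 2 months on their brightest probes. So did 23.7% of all genes tested. The second Dsg2 probe read 6.61 at 5 months and 6.59 at 2 months in control wounds, so it was not lower there. For Dsc3 the 5-month array was lower by a log2 difference of -0.89 within knockdown and -0.78 within control wounds, wider than the -0.59 between the groups. Knockdown replicate 1, the 5-month knockdown wound, was the lowest of the 6 arrays for all 5 genes, as it was for 12.7% of all genes tested. Age is matched by replicate number, with 1 array per age and genotype, so age and sample cannot be told apart. The SDs, SEs, intervals and limma p-values given above hold both.

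Set against the control wound of the same age, 4 of the 5 genes were lower in knockdown at both ages on their brightest probes. The same was so for 25.8% of all genes. Dsg2 differed by -1.29 at 5 months and -0.94 at 2 months. Pkp1 differed by -0.72 and -0.98, Dsc3 by -0.65 and -0.53, and Dsg1b by -0.48 and -0.42. Dsc1 was the exception, at -0.51 and 0.03. On 1 dimmer Dsg1b probe, however, the 2-month knockdown wound read 6.64 against 6.53 in its control, so Dsg1b was not lower there. On the brightest probes, differences of at least 0.5 log2 in the lower direction at both ages were found for 3 of the 5 genes. They were Dsg2, Pkp1 and Dsc3, and 2.54% of all genes tested showed the same. The count depends on the probe: at 2 months the second Dsg2 probe read 6.46 in knockdown against 6.59 in control, both detected. All of these within-age differences are between single arrays and carry no test.

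**Figure D2:**
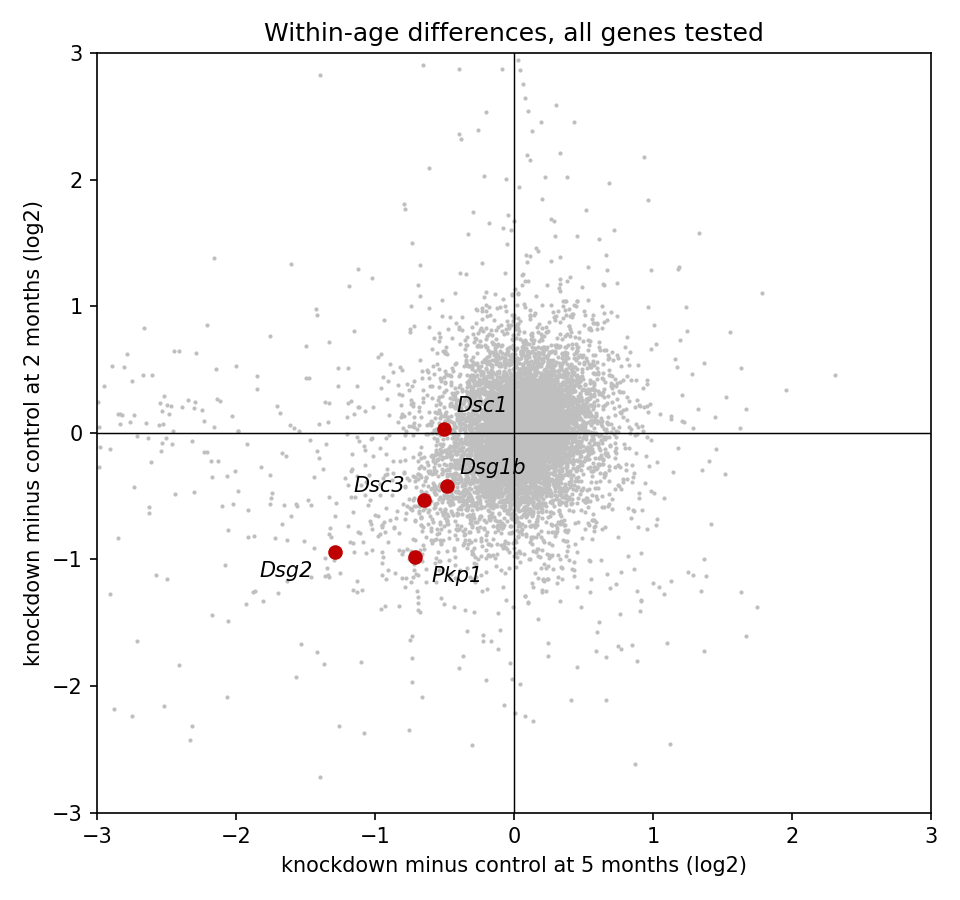
Log2 difference between the knockdown and the control array at 5 months (x axis) and at 2 months (y axis) for the 9855 genes tested (grey), with the 5 measured desmosomal genes in red; 81 genes lie outside the axes. Each gene is shown on the probe that stood for it. Dsg2, Pkp1, Dsc3 and Dsg1b lie below 0 on both axes, and Dsc1 lies at 0.03 on the y axis.

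The size of the median difference rested on single arrays. It was -0.15 without knockdown replicate 1 and -0.20 without control replicate 2. Without knockdown replicate 2 it was -1.03, and without control replicate 1 it was -0.98. With 1 array against 2, knockdown lay wholly below control in 5 of the 5 genes without knockdown replicate 2, as in 29.2% of all genes, and in 4 without control replicate 1, as in 33%. The count was 2 without knockdown replicate 1 and without control replicate 2, where the shares were 37.7% and 29.3%. Dsg2 stayed between -1.52 and -0.71 and Pkp1 between -1.23 and -0.46 as each tamoxifen array was left out. With 2 residual degrees of freedom, the same test on simulated data recovered 4% of 2-fold and 54% of 4-fold changes among the 9855 genes. The simulated noise was independent between genes and arrays, whereas the replicates here differ in age. These shares therefore need not hold for the wounds.

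The other components of the desmosome were taken as a list of 9 genes, of which 7 were measured. None passed the test in limma, with the smallest adjusted p at 0.976 and 0 at an unadjusted p under 0.05. Their median difference was -0.22, with 5 lower in knockdown and 4 lower at both ages. Of all genes tested, 48.1% were lower, 25.8% were lower at both ages and 4.4% had an unadjusted p under 0.05 in limma. Jup, or plakoglobin, is the closest relative of β-Catenin and sits in both desmosomes and adherens junctions. It read 6.43 and 6.92 in knockdown against 7.02 and 7.79 in control wounds, both knockdown arrays below both controls. The log2 difference was -0.73 with a 95% interval of -1.61 to 0.14 (limma adjusted p = 0.976).

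Pkp4, a plakophilin also found at adherens junctions, read 10.44 and 10.24 against 10.83 and 10.60, without overlap. Pkp3, the plakophilin present in all living epidermal layers, read 9.97 and 10.43 against 10.27 and 11.07, with overlap. Among the components of the upper epidermis, Cdsn, the corneodesmosome protein corneodesmosin, had a difference of 0.07, and Ppl, the plaque protein periplakin, of -0.22. Perp, a membrane protein that desmosomes need, had a difference of -0.15 and Pkp2 of 0.14. Evpl and Dsg4 were not tested in this comparison. The only probe of Evpl, the plaque protein envoplakin, read 11.30 and 11.83 on the GFP control and stabilised arrays and 4.96 to 6.77 on the 4 tamoxifen arrays. That gap lies between the experiments, not within either, and its cause was not tested.

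The promoter of Jup is shown because this partner, detected on every array, had the lowest knockdown difference of the 7 measured partners, and because the RefSeq promoter table used here holds 1 of the 10 members, Dsp, which has no probe. The 250 bases before the start of Jup (RefSeq, build GRCm38.p6, chr11:100397791-100398040, minus strand) are given 5′ to 3′ with no part in capitals, since no motif searched was found.
Jup promoter: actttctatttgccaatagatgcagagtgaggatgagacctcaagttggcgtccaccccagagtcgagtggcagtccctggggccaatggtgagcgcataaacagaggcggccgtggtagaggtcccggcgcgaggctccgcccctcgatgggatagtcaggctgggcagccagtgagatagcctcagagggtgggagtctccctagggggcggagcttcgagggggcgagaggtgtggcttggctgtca
The motifs were CTTTGA, the core of the Tcf/Lef motif, AACNGGTT of the Grainyhead-like factors and TGANTCA of AP-1, on both strands, over these bases and the first part of the transcript that the table holds. They had 0 matches in the Jup and 0 in the Dsp promoter. Of all 32851 promoters of the same length, 16% held the first, 2.09% the second and 7.81% the third. An absent match says only that these letters are not in this window.

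Genes of neighbouring structures gave the frame for these differences. In the adherens junction list 6 of 8 measured genes were lower in knockdown at both ages, with a median of -0.27. Cdh1, or E-cadherin, read 9.29 and 9.77 against 9.81 and 10.42, a log2 difference of -0.58, and Nectin1 and Cdh3, or P-cadherin, each differed by -0.42. The hemidesmosome list, the junction of basal cells with the basement membrane, was lower in 7 of 7 genes at both ages, with a median of -0.80 and 5 genes at an unadjusted p under 0.05. Its members Dst, Lamb3 and Itgb4 had differences of -1.20, -1.01 and -0.98. Of 6 tight junction genes 4 were lower at both ages, and the median was -0.36. The median of the 4 corneodesmosome proteases and inhibitors measured was -0.19, with the protease inhibitor Spink5 at -0.46, St14 at -0.42, Klk7 at 0.04 and Klk5 at 0.03. Spink5 and St14 were lower at both ages. No gene of these lists had an adjusted p under 0.05 in limma, and all genes tested had a median of 0.01. Of all genes tested, 25.8% were lower at both ages and 4.4% had an unadjusted p under 0.05 in limma.

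Markers of keratinocytes differed along with the desmosomal genes. All 7 basal markers were lower in knockdown without overlap between the groups, as were 16% of all genes tested. Their median was -0.98, and Krt15 and Krt5 differed by -1.57 and -1.18. Krt14, among the brightest genes, differed by -0.09, but a probe this bright may not show a change. This list shares 3 genes (Itga6, Itgb4 and Col17a1) with the hemidesmosome list and Trp63 with the transcription factors below, so the lists are not separate. Their mean level was 11.1 and 11.6 log2 on knockdown replicates 1 and 2, and 11.99 and 12.5 on the controls. All 4 wound-edge keratins were lower too, with a median of -1.50. Their mean level was 11.2 and 12.5 in knockdown against 13.2 and 13.6 in control wounds. For the 7 suprabasal markers the median was -0.03, and 4 were lower. Their mean difference of -0.66 came almost wholly from Krt2, at -4.48: without it the mean level of the other 6 was 14.5 and 14.7 in knockdown against 14.4 and 14.8 in control wounds, a difference of -0.02. Among them Krt10 read 15.98 to 16.03 and Lor 15.56 to 15.88 over all arrays. Probes this bright may not show a change, so the -0.02 does not say that suprabasal RNA was unchanged. The epidermal transcription factors were lower in 8 of 8 genes at both ages, as were 25.8% of all genes tested. The median of these factors was -0.49, and Trp63, encoding the master factor p63 of stratified epithelium, differed by -1.17. The part of these shifts in the desmosomal differences was not tested.

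Markers of other cells did not share one pattern. The 6 fibroblast markers had a median of 0.04 and mean levels from 13.5 to 13.9 on the tamoxifen arrays, and the 5 macrophage markers had a median of 0.08 and mean levels from 9.39 to 10.3. The 5 neutrophil markers had a median of 0.86, and their mean level was 11.2 on knockdown replicate 2, above the 8.74 to 9.24 of the 3 other tamoxifen arrays. The 6 skeletal muscle markers had a median of -1.90, with mean levels of 8.62 and 10.6 in knockdown and 12.3 and 10.8 in control wounds. The 5 endothelial markers had a median of 0.04. Of the melanocyte and hair follicle markers, 2 of 5 and 0 of 10 passed the filter on detection, and the 2 melanocyte genes had a median of -1.70. Their part in the desmosomal differences was not tested either.

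**Figure D3:**
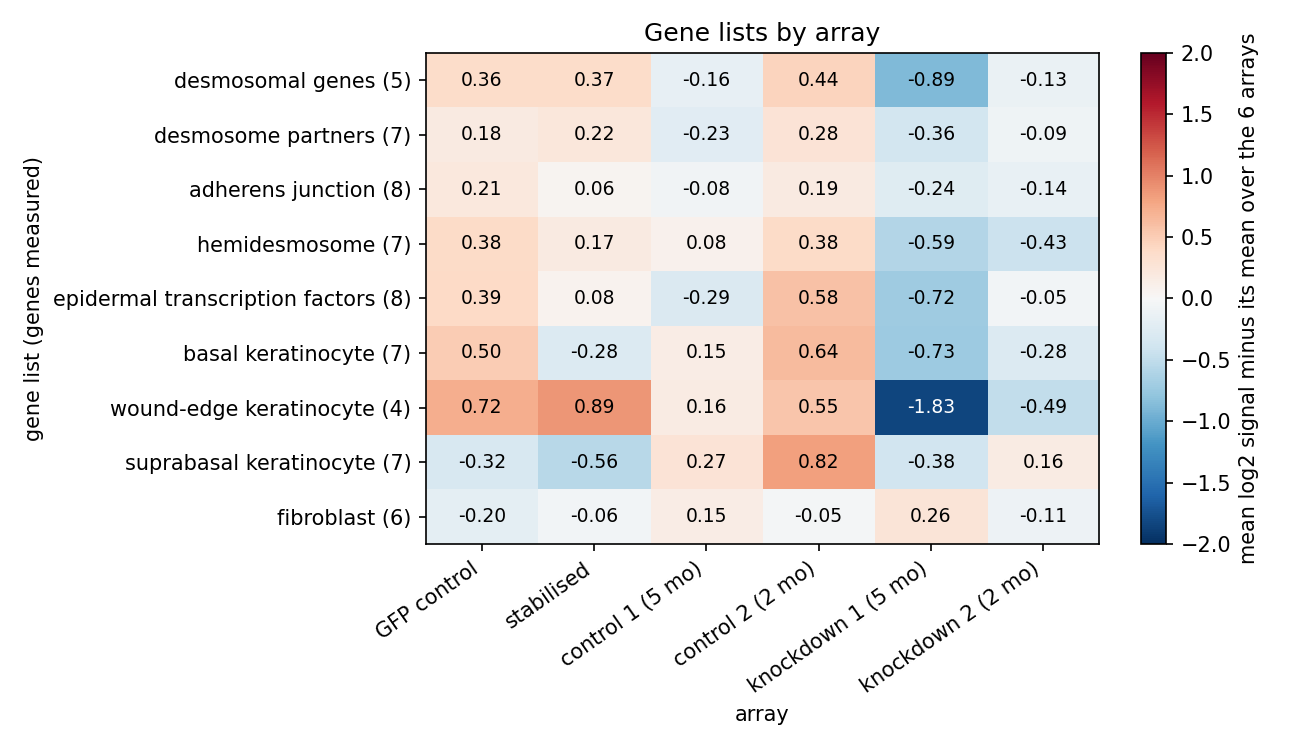
Mean log2 signal of each gene list (rows, number of measured genes in brackets) on each array (columns), minus that list's mean over the 6 arrays; red is above and blue below it. The desmosomal genes run from -0.89 on knockdown replicate 1 to 0.44 on control replicate 2, and the wound-edge keratins from -1.83 on knockdown replicate 1 to 0.89 on the stabilised array.

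The second comparison asked what stabilised β-Catenin does to the same genes. With 1 array on each side it has neither a replicate check nor a test. The desmosomal genes were split: Dsg1b and Pkp1 read higher on the stabilised array, Dsc3 lower, and Dsg2 and Dsc1 differed by less than 0.2 log2. Of the 5 genes detected on both arrays 3 read lower, as did 42% of the 9075 genes detected on both, and the median differences were -0.10 and 0.06. None of the 5 was at least 2-fold lower, where 2.61% of the 9075 were.

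Dsg1b read 9.42 on the stabilised and 8.76 on the GFP control array, a log2 difference of 0.66 or 1.58-fold. Its 3 probes disagreed, however: the others gave 0.12 and -0.90, the latter below detection on the stabilised array, and the mean over probes gave -0.04. Pkp1, with 1 probe, read 12.89 against 12.50, a difference of 0.39. The stabilised array was the highest of all 6 for Pkp1, just above the 12.85 of tamoxifen control replicate 2. Dsc3 read 9.07 against 9.77, a difference of -0.70. Dsg2 read 8.14 against 8.33 and Dsc1 9.46 against 9.55, differences of -0.19 and -0.10.

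Dsg1a and Dsg1c entered this comparison through the GFP control array alone, so a lower signal on the other one is favoured by how they were chosen. Dsg1a read 5.24 on the stabilised and 6.25 on the GFP control array. The lowest detected signal on the stabilised array was 6.30, so no fold can be given. Dsg1c read 5.37 against 6.90 and was at least 1.51-fold lower, the GFP control value being set against the lowest detected signal on the stabilised array. The other Dsg1c probes were detected on neither array. Both lay past 2-fold in measured signal, as did 4.91% of 10002 genes, but the filter sets that count and nothing is read from it. No member was at least 2-fold higher, as 2.76% of genes were.

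Of the partners, 8 were compared, and their median difference was -0.002. Over the 7 detected on both arrays it was 0.09, and both medians depend on the probes. Cdsn gave 0.09 on its brightest probe and -0.41 and -0.48 on its others. Ppl gave -0.09 on its brightest probe and -0.18 and -0.86 on its others. Jup read 8.03 on the stabilised against 7.32 on the GFP control array, a difference of 0.71, and Evpl differed by 0.53. Pkp4 differed by -0.30 and Pkp3 by -0.12. For Jup, as for Pkp1 and for Dsg1b on its brightest probe alone, the stabilised array was the highest and knockdown replicate 1 the lowest of the 6. That order sets arrays of 2 experiments side by side. Its share over all genes was not counted, so nothing is read from it. Basal keratinocyte markers had a median of -0.38 over 7 genes, with Krt15 at -3.93, and wound-edge keratins had a median of 0.47 over 4 genes. Hair follicle keratins were detected on the GFP control array for 4 of the 10 listed genes and on the stabilised array for 1 of these 4, Krt73, which differed by -2.41. Skeletal muscle markers had a median of -3.54 over 4 genes, of which 1 was detected on both arrays and differed by -3.95. The others entered through the GFP control array alone, which favours a lower stabilised signal, so nothing is read from that median. The median of the 5 macrophage markers was 0.90. The part of these markers in the desmosomal differences was not tested.

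**Figure D4:**
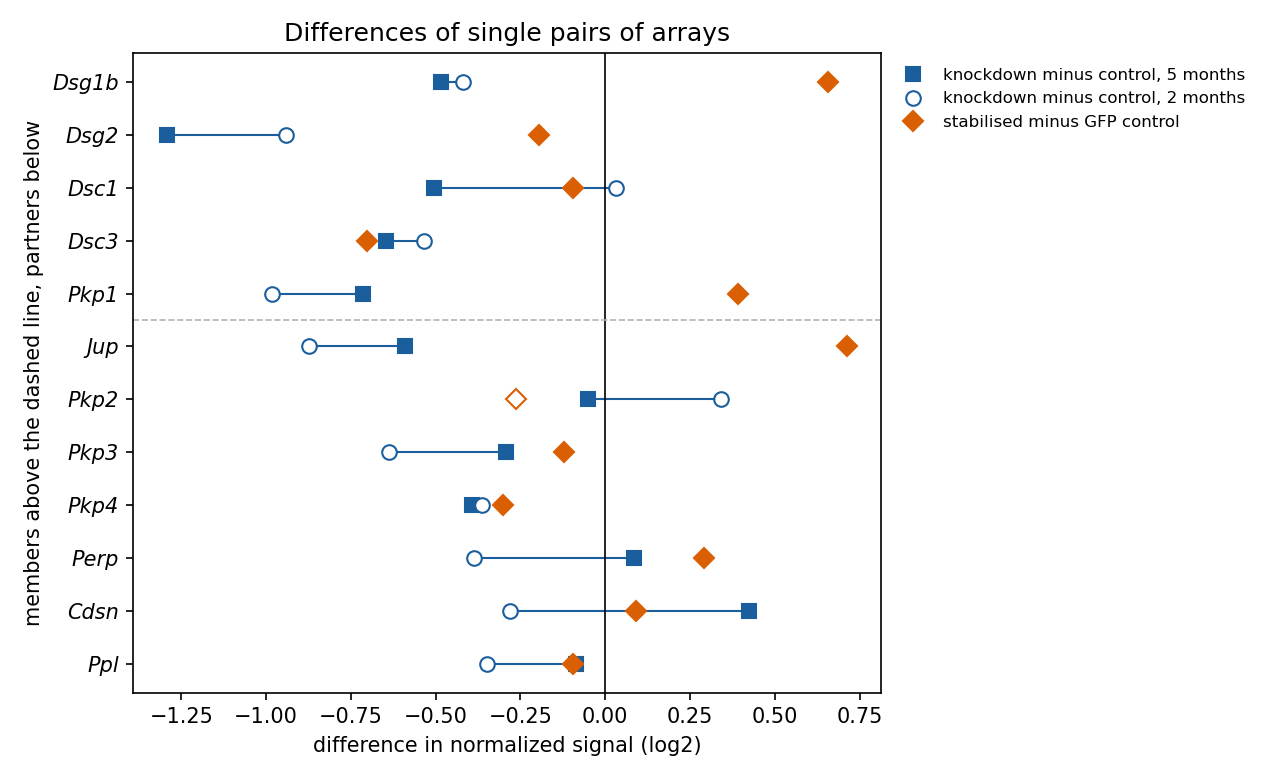
Log2 difference (x axis) between pairs of single arrays for the 5 measured desmosomal genes and 7 partners (y axis): knockdown minus control at 5 months (squares) and at 2 months (open circles), and stabilised minus GFP control (orange diamonds, open where 1 array was below detection). Each gene is shown on the probe that stood for it. Dsg1b, Pkp1 and Jup lie below 0 in both knockdown pairs and at 0.66, 0.39 and 0.71 in the adenovirus pair, while Dsc3 lies below 0 in all 3 pairs.

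Set side by side, the 2 experiments share no arrays. Pkp1 differed by -0.85 with knockdown and by 0.39 with stabilisation, Jup by -0.73 and 0.71, and Dsg1b by -0.45 and 0.66 on its brightest probe. Dsg2 differed by -1.12 and -0.19, Dsc3 by -0.59 and -0.70, and Dsc1 by -0.24 and -0.10. So on their brightest probes 2 of the 5 measured members had opposite signs in the 2 experiments and 3 the same sign. The count depends on the probe: on the mean over its probes Dsg1b differed by -0.44 and -0.04. The share of all genes with opposite signs was not counted. The difference between experiments was not tested, as the adenovirus pair has no replicates.

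Across the 6 arrays, the genes most like the desmosomal genes were looked up by Pearson correlation with the mean centred signal of the 5 members, among 782 other genes detected on all arrays with an SD of at least 0.5 log2. The 5 closest were Grhl2, Sfn, Ly6d, Esrp2 and Col17a1, with r from 0.979 to 0.999 over 6 arrays. Grhl2, which encodes a Grainyhead-like transcription factor of epithelia, read 6.78 and 7.57 in knockdown, 7.56 and 8.25 in control wounds, 8.13 on the stabilised and 8.18 on the GFP control array. The arrays share the differences in keratinocyte markers given above, and the values describe these 6 arrays only.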

How the data were processed

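Wound RNA from 6 samples was read on Illumina bead arrays. The deposited non-normalized table gives each probe's mean signal intensity and its detection p-value on every array, per the file headers. The deposited series table holds log2 values that the authors normalized, with equal quantiles and within 0.0874 of limma's neqc on the intensities. The submitters' processing notes name R 2.14 and nothing more, and the method of normalization is not stated. The intensity table had 2 lines of stray text, which were dropped.

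Genes were named by the platform annotation, in which 34885 probes had a single gene symbol, 18 had several and 10378 had none. A check against RefSeq gene identifiers (GRCm38.p6) changed 0 symbols. For knockdown, a probe needed a detection p under 0.01 on 2 or more tamoxifen arrays, and the brightest such probe stood for its gene. The resulting 9855 genes were fitted in limma 3.58.1 (R 4.3.3) with a mean for each group and eBayes at its defaults. Tests were two-sided, with Benjamini-Hochberg adjustment over all genes and a threshold of 0.05. For the adenovirus pair, genes detected on at least 1 array were compared by difference, counted from 2-fold. The labels call same-group arrays biological replicates, but in the tamoxifen groups these arrays differ in age. The p-values reflect the spread between these arrays alone, which holds age and sample together. The exact permutation test, with 2 arrays on each side, has 0.333 as its smallest two-sided p.

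On simulated data with 200 changed genes the limma fit made 6 false calls. Alternatives covered normalization, scaling, background, the detection filter, the probe rule, the variance model, the replicate block and left-out arrays. The text names all members, the partners, up to 4 genes of each other list by size of difference, and the 5 genes closest in profile. Krt10, Lor, Krt14 and Krt73 were named after their values were seen. The members and lists were chosen with earlier results of these data known. The replicate numbers match age in both tamoxifen groups, but the labels name no shared litter, batch or day. The main design therefore has no block and no term for age, and any age difference stays in its residual spread.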

Additional observations from a re-analysis of the deposited data

Results flagged for a closer look

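For 4 of the 12 tested members and partners, the knockdown wound differed from its control in opposite directions at the 2 ages. The share of all genes tested that did so was not counted, so the count is not read as a trait of these genes. With 1 array per age and genotype, the difference between ages was not tested. Dsc1 differed by -0.51 log2 at 5 months and 0.0322 at 2 months. Cdsn differed by 0.42 at 5 months and -0.28 at 2 months. Perp differed by 0.0852 at 5 months and -0.39 at 2 months. Pkp2, detected on 2 of the 4 tamoxifen arrays, differed by -0.0522 at 5 months and 0.34 at 2 months.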

How the results depend on the processing

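The count of 0 members past the threshold held under every alternative run, and the median knockdown difference stayed within -0.60 to -0.47 under the normalization, scaling, background, filter and probe alternatives. With a replicate block, which changes no difference, limma again called 0 genes and 0 members, but 746 genes and 4 of the 5 members (Dsg2, Pkp1, Dsc3, Dsg1b) had an unadjusted p under 0.05 (4.57% of all genes had one and were lower), with adjusted p of 0.631 to 0.658 for the 4. The 2 numbered pairs had a correlation of deviations of 0.126 over genes, and they share a number and an age only. With single arrays left out, the count of genes called ran from 0 to 7 (7 without knockdown replicate 1), the median from -1.03 to -0.15, and the members without overlap from 2 to 5, where 29.2% to 37.7% of all genes had none. Dsc1 ran from -0.67 to 0.19, the last without knockdown replicate 1, where it changed sign. With no detection filter, 9 members entered, and 4 did not overlap and were lower, as was so for 16.2% of 19057 genes. The added 2, Dsg1c and Dsg3, were below detection on all 4 arrays. On the adenovirus arrays, the 2 members at least 2-fold lower became 1 without quantile normalization, 1 with no filter, 0 without background correction and 0 among members detected on both arrays, an alternative chosen after seeing the data. Both are Dsg1 copies near background, where the signal limits what can be compared.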
